A study of Homo sapiens with 2 samples.

Results

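The amino acid transporter families SLC1A, SLC7A, SLC36A, SLC38A and SLC43A, with the 2 heavy chain genes SLC3A1 and SLC3A2, were described in RNA sequencing of SUM-159, a human breast cancer cell line of the triple-negative class. Members were the protein-coding rows whose current symbol is one of these family names followed by a number, found through the Ensembl identifier of the row, 40 genes of 60880 rows. One library of polyA RNA came from cells labelled PD-L1L2-SE deficient, for a super-enhancer that the series title ties to both PD-1 ligands, and 1 library came from cells labelled sgVector, the control. Both come from the same line, and the labels do not say whether the deficient cells were 1 clone or a pool. With 1 library per group no difference has a replicate check and no test between groups was possible. The 95% Clopper-Pearson intervals given with fold changes cover counting error only.

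Amino acid transporters carry amino acids across the plasma membrane and the lysosomal membrane, and most exchange one amino acid for another or couple uptake to sodium or protons. SLC1A carriers take up glutamate and aspartate or exchange small neutral amino acids, SLC7A carriers handle cationic, large neutral or cystine substrates, and several SLC7A light chains reach the surface only as a disulfide-linked pair with the SLC3A2 heavy chain. SLC38A carriers are sodium-coupled or lysosomal, most SLC36A carriers are coupled to protons, and SLC43A carriers move large neutral amino acids by facilitated diffusion. Tumour cells are known to draw on glutamine, leucine, arginine and cystine taken up through these families.

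The deposited RPKM values, reads per kilobase of exon length per 1000000 reads on genes, came from 16381546 gene reads for deficient cells and 16206675 for sgVector cells. CD274, which encodes PD-L1, stood at 0.698 RPKM in the deficient library and 7.16 RPKM in the sgVector library, and PDCD1LG2, which encodes PD-L2, at 1.19 RPKM in the deficient library against 5.32 RPKM in the sgVector library. The line's markers VIM, CD44, CAV1, AXL and FN1 had summed levels of 877 RPKM in the deficient library and 1176 RPKM in the sgVector library. VIM was 1.91-fold lower, at 389.7 RPKM in the deficient library against 746.2 RPKM in the sgVector library, CD44 stood at -0.27, AXL at -0.01, CAV1 at 0.10 and FN1 at 0.37 in log2 ratio. PGR, CDH1, EPCAM and ESR1 had 0 to 6 reads in either, while ERBB2 stood at 9.996 RPKM in the deficient library against 7.02 RPKM in the sgVector library. Of 10 leukocyte markers 1 passed a mean of 1 RPKM, CD14 at 15.4 RPKM in the deficient library against 11.0 RPKM in the sgVector library, and their summed level was 15.5 RPKM in the deficient library against 11.6 RPKM in the sgVector library, with CD3E at 0 reads in both. Of 6 matched endothelial markers ERG alone passed, with a summed level of 1.501 RPKM in the deficient library against 1.34 RPKM in the sgVector library and TEK at 0 reads. The 8 luminal breast markers summed to 114 RPKM in the deficient library and 117 RPKM in the sgVector library, with 5 past the floor and ELF5 at 0 reads. XBP1 made up most of that sum, at 75.3 RPKM in the deficient library against 66.8 RPKM in the sgVector library. Of the 5 past the floor XBP1 stood above 0 and the other 4 below, with a median log2 ratio of -0.27. The part of these markers in the transporter values was not tested, and in bulk RNA fewer cells of a type and less RNA per cell cannot be told apart.

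In SUM-159 cells 20 of the 40 members passed a floor of a mean of 1 RPKM over both libraries, a share of 50% against 53.3% of protein-coding genes. The members together summed to 408 RPKM in the deficient library and 380 RPKM in the sgVector library. SLC38A2, a sodium-coupled carrier of small neutral amino acids, was the most abundant at 168 RPKM in the deficient library (41.2% of the members' sum) against 151 RPKM in the sgVector library (39.7%). It ranked 137 among protein-coding genes in the deficient library against 159 in the sgVector library. SLC1A5, the glutamine exchanger known as ASCT2, was the second most abundant in both libraries, at 47.1 RPKM in the deficient library against 69.1 RPKM in the sgVector library. The sodium-coupled glutamine carrier SLC38A1 followed at 45.2 RPKM in the deficient library against 33.9 RPKM in the sgVector library. Next were the large neutral amino acid light chain SLC7A5, at 33.7 RPKM in the deficient library against 32.8 RPKM in the sgVector library, and its heavy chain SLC3A2, at 22.0 RPKM in the deficient library against 23.1 RPKM in the sgVector library. These 5 genes took 77.5% of the members' summed RPKM in the deficient library against 81.5% in the sgVector library. The rank order of the 5 was the same in both.

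**Figure D1:**
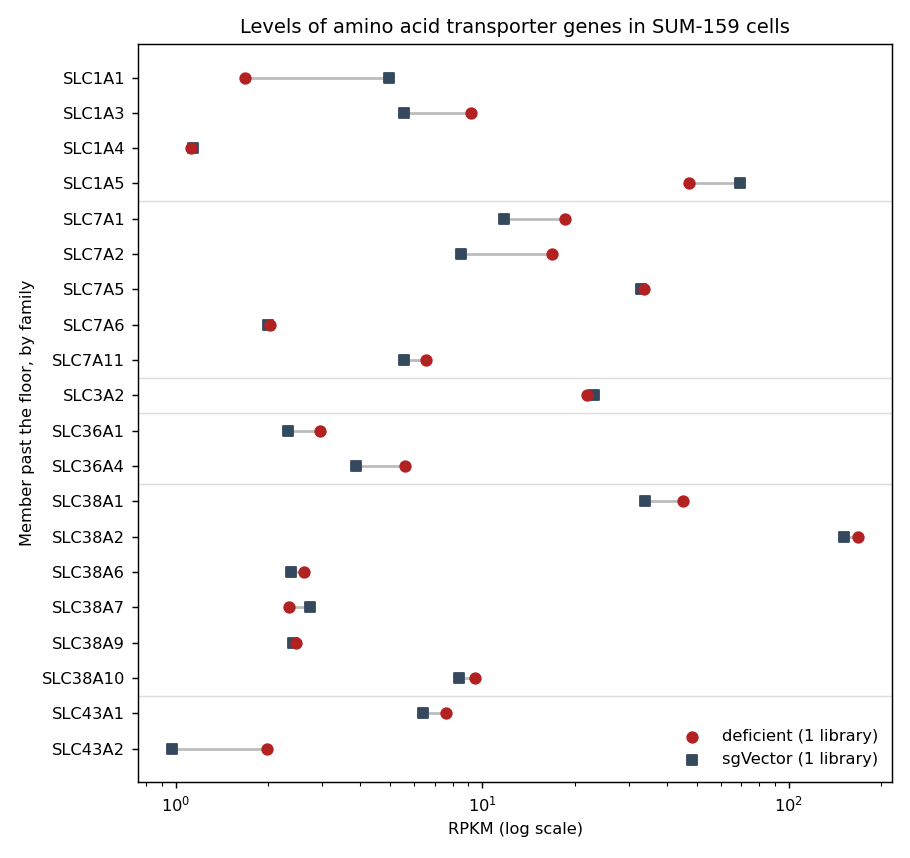
RPKM on a log axis of the 20 members past the floor, by family, with 1 point per library (circle, deficient; square, sgVector). SLC38A2 stands highest in both libraries, at 168 RPKM in the deficient and 151 RPKM in the sgVector library, and SLC1A1 and SLC43A2 show the widest gaps, in opposite directions.

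Below the floor were 20 members, and 11 of them had 0 reads in both libraries. These were the glutamate carrier gene SLC1A6, the SLC7A genes SLC7A3, SLC7A4, SLC7A8, SLC7A10, SLC7A13 and SLC7A14, the proton-coupled genes SLC36A2 and SLC36A3, and SLC38A3 and SLC38A11. A count of 0 allows up to 3 reads, which for these genes is between 0.0175 and 0.0815 RPKM in the deficient library and between 0.0177 and 0.0824 RPKM in the sgVector library. The other 9 had at most 49 reads in a library. Among them SLC43A3, known as a purine nucleobase carrier, had 44 reads in the deficient library against 49 reads in the sgVector library, and SLC7A7, SLC38A4 and SLC38A5 had 16, 15 and 1 reads in the deficient library against 24, 7 and 8 reads in the sgVector library. SLC7A9 and SLC1A7 had 1 and 0 reads in the deficient library against 6 reads each in the sgVector library. SLC1A2 and SLC38A8 had 5 and 0 reads in the deficient library against 1 read each in the sgVector library, and SLC3A1, the heavy chain of the kidney cystine carrier, had 1 read in each library. At this depth no difference is read from these 9 genes.

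The sequences around a listed start of 4 members on both sides of no change are shown because each holds TGATGNAA, the letters of the C/EBP-ATF response element bound by factors of the amino acid response, and that of SLC1A1 because it was the one member past 2-fold. RefSeq promoters (build GRCh38.p14, while the count coordinates are hg19) were found for 31 of the 40 members, some with several listed starts. Each stretch lies within 250 bases before to 50 bases after 1 listed start. Capitals mark the matching letters, which lie before the start in SLC1A5 and SLC1A3, across it in SLC38A1 and after it in SLC7A1. SLC1A3 and SLC1A5 each have another listed start whose promoter held no TGATGNAA (chr5:36606356-36606655 and chr19:46787244-46787543). The counts are per gene and do not tell which start was used. The counted exons of SLC1A3 begin at 36606457 in hg19, and positions were not converted between the builds. For SLC1A5 the window is chr19:46784845-46784934 on the minus strand, for SLC1A3 chr5:36596338-36596427 on the plus strand, and for SLC38A1 chr12:46266507-46266576 on the minus strand. For SLC7A1 it is chr13:29595669-29595728 on the minus strand, and for SLC1A1 chr9:4490368-4490467 on the plus strand.
SLC1A5: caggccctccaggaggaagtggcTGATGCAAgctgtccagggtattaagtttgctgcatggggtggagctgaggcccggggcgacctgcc
SLC1A3: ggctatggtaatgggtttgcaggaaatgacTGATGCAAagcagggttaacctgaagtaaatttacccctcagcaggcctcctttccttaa
SLC38A1: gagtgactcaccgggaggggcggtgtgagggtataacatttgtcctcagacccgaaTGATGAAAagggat
SLC7A1: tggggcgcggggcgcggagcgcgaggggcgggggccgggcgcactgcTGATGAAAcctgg
SLC1A1: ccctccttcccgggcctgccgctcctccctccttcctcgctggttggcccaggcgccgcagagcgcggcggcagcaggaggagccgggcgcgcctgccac

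TGATGNAA, searched on both strands from 250 bases before to 50 bases after each listed start, lay in 6 of 53 member promoters (11.3%), against 3.62% of 35116 promoters. The 6 genes were SLC1A3, SLC1A4, SLC1A5, SLC38A1, SLC3A2 and SLC7A1. In the deficient library 3 of these stood above the sgVector library with intervals that excluded no change (SLC1A3, SLC38A1 and SLC7A1), SLC1A5 stood below it, and the intervals of SLC1A4 and SLC3A2 held no change. CACGTG, the E-box letters, lay in 9 of 53 member promoters (17.0%) against 7.26% of all promoters, among them those of SLC7A5, SLC1A5, SLC36A1, SLC38A7 and SLC43A1. TGACNNNGC, the core of the antioxidant response element, lay in 7 of 53 (13.2%) against 13.3%. In the stretches shown TGATGNAA was the one pattern of the 3 that matched, so no matches overlapped there, and a match is a run of letters, not a measured binding site.

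Across the families, 0 of the 20 members past the floor reached 2-fold higher in the deficient library by the log2 ratio of (RPKM + 0.1), and 1 reached 2-fold lower, SLC1A1. Among 10576 protein-coding genes past the same floor 2.10% reached 2-fold higher and 2.07% reached 2-fold lower. The members' median log2 ratio was 0.17, against -0.03 over those protein-coding genes, and 15 members stood above 0 and 5 below, a share above 0 of 75% against 46.4%. With the whole counting interval on one side of no change, 11 members were higher (55.0%) and 2 were lower (10%), against 30.0% and 35.4% of protein-coding genes. That rule favours genes with many reads, and the members had between 110 and 18190 reads. After a correction of the log2 ratios for GC content and length 12 members stood above 0 and 8 below, with a median of 0.13. The family medians rest on few genes past the floor, 4 in SLC1A, 5 in SLC7A, 6 in SLC38A and 2 each in SLC36A and SLC43A.

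**Figure D2:**
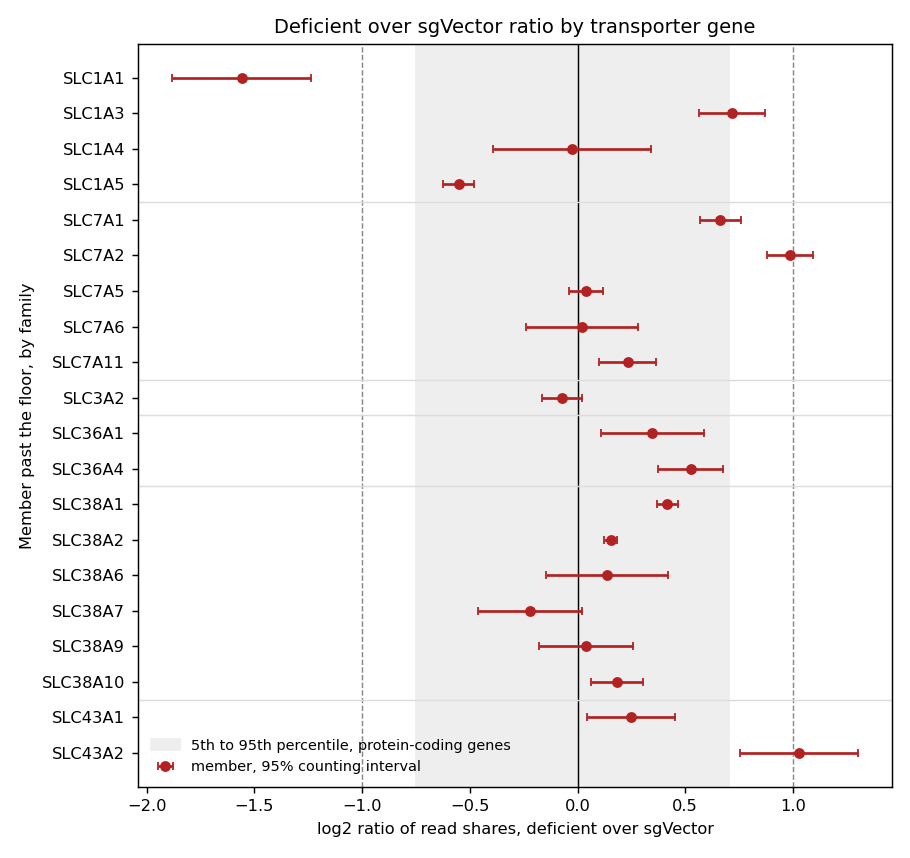
Log2 ratio of read shares, deficient over sgVector, with 95% counting intervals for the 20 members past the floor, by family. The grey band spans the 5th to 95th percentile of protein-coding genes past the floor (-0.75 to 0.70), the dashed lines mark 2-fold, and SLC1A1 lies below the band while SLC7A2, SLC43A2 and SLC1A3 lie above its upper end.

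The glutamate carriers of the SLC1A family stood on opposite sides of no change. SLC1A1, the glutamate, aspartate and cysteine carrier also called EAAT3, stood at 1.68 RPKM from 110 reads in the deficient library and 4.94 RPKM from 320 reads in the sgVector library, 2.94-fold lower (2.36 to 3.69). SLC1A3, the glutamate and aspartate carrier called EAAT1 or GLAST, stood at 9.15 RPKM from 939 reads in the deficient library and 5.56 RPKM from 565 reads in the sgVector library, 1.64-fold higher (1.48 to 1.83). The 5 glutamate carriers summed to nearly the same level, 10.8 RPKM in the deficient library and 10.6 RPKM in the sgVector library. SLC1A3 made up 84.4% of that sum in the deficient library against 52.6% in the sgVector library, and the ratio of SLC1A3 to SLC1A1 RPKM was 5.45 in the deficient library against 1.13 in the sgVector library. SLC1A2, the main glutamate carrier of astrocytes, added 5 reads in the deficient library and 1 read in the sgVector library.

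The neutral exchangers of the SLC1A family lay lower or level. SLC1A5 had 2573 reads in the deficient library and 3732 reads in the sgVector library and was 1.47-fold lower (1.39 to 1.54). Its log2 ratio was -0.55, and -0.34 after the GC and length correction. SLC1A4, the serine, alanine and threonine exchanger ASCT1, was just above the floor, at 1.12 RPKM in the deficient library against 1.14 RPKM in the sgVector library, and its interval of 0.762 to 1.26 in fold held no change. The SLC1A median was -0.29 over 4 members.

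SLC1A1 lies on terminal 9p, in hg19 on chromosome 9 from 4490444 to 4587469, near CD274, and its neighbours were lower as well. Of 6 other protein-coding genes past the floor that start within 1 Mb, 5 had log2 ratios below 0 and the median was -0.92. Without CD274 it was -0.88 over 5 genes, 4 of them below 0. The co-chaperone gene CDC37L1 had 119 reads in the deficient library against 332 reads in the sgVector library, at -1.45 close to the -1.50 of SLC1A1. The adenylate kinase gene AK3 stood at -0.62, the RNA processing gene RCL1 at -0.96 and the plasminogen receptor gene PLGRKT at -0.88, while JAK2, a kinase of cytokine signalling, stood at 0.11. SLC1A1 shared the direction of its neighbourhood, and its log2 ratio minus the neighbours' median was -0.58. The part of this position in the value of SLC1A1 was not tested.

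The cationic carriers of the SLC7A family were the class with the highest ratio of summed levels. SLC7A1, SLC7A2 and SLC7A3 summed to 35.5 RPKM in the deficient library and 20.3 RPKM in the sgVector library, a ratio of 1.75. SLC7A1, the arginine and lysine carrier CAT1, stood at 18.6 RPKM from 2339 reads in the deficient library against 11.7 RPKM from 1463 reads in the sgVector library, 1.58-fold higher (1.48 to 1.69). SLC7A2, the cationic carrier CAT2, which is known to supply arginine to nitric oxide synthase in mouse macrophages, stood at 16.9 RPKM from 2187 reads in the deficient library against 8.53 RPKM from 1093 reads in the sgVector library. At 1.98-fold higher (1.84 to 2.13) it was just short of 2-fold. Its log2 ratio was 1.01 with centring and with upper-quartile scaling, 1.03 with TPM and 1.05 with TMM, but 0.95 without mitochondrial genes, 0.91 with a pseudocount of 1 RPKM and 0.81 after the GC and length correction. Both genes stood above 0 in the deficient library under each of 8 alternative settings.

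SLC7A1 lies on chromosome 13 (30083547 to 30169825, hg19), where 180 protein-coding genes past the floor had a median log2 ratio of 0.46. Its own ratio was 0.66, and the 4 neighbours within 1 Mb were each above 0, with a median of 0.42. SLC7A2 lies on chromosome 8 (17354597 to 17428082, hg19), where the median was 0.13 over 372 genes. Its 7 neighbours had a median of 0.12, with 3 below 0 and 4 above and an upper quartile of 0.93. Above 0 were MTUS1 at 1.24, PDGFRL at 1.09, ZDHHC2 at 0.78 and PCM1 at 0.12. Below it were CNOT7 at -0.03, VPS37A at -0.18 and ASAH1 at -0.32. SLC7A2 stood 0.86 above the median of its neighbourhood and SLC7A1 0.23, but MTUS1 and PDGFRL stood above the 0.98 of SLC7A2. After the GC and length correction the median around SLC7A2 was -0.13 and that around SLC7A1 was 0.31. SLC7A2 itself then stood at 0.81 and SLC7A1 at 0.70.

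The light chains that pair with SLC3A2 had nearly the same summed level in both libraries. Together SLC7A5, SLC7A6, SLC7A7, SLC7A8, SLC7A10 and SLC7A11 summed to 42.4 RPKM in the deficient library and 40.6 RPKM in the sgVector library. SLC7A5, the leucine and tryptophan carrier LAT1, had 2618 reads in the deficient library against 2523 reads in the sgVector library, a fold of 1.03 (0.972 to 1.08), and made up 79.4% of the light chain sum in the deficient library against 80.7% in the sgVector library. SLC3A2, the heavy chain CD98, had 1866 reads in the deficient library against 1941 reads in the sgVector library, a fold of 0.951 (0.892 to 1.01). The ratio of summed light chains to SLC3A2 was 1.93 in the deficient library against 1.76 in the sgVector library. Both intervals held no change. The GC and length correction moved SLC7A5 from a log2 ratio of 0.04 to 0.20 and turned SLC3A2 from -0.07 to 0.05, both outside their counting intervals.

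SLC7A11, the cystine and glutamate exchanger xCT, stood at 6.53 RPKM from 1032 reads in the deficient library and 5.56 RPKM from 869 reads in the sgVector library, 1.17-fold higher (1.07 to 1.29), and its log2 ratio of 0.23 became -0.02 after the GC and length correction. SLC7A6, the exchanger y+LAT2, had 251 reads in the deficient library against 245 reads in the sgVector library, a fold of 1.01 (0.847 to 1.21). Its exons share 3371 bases with the opposite-strand gene SLC7A6OS, 44.4% of its length, and the sources do not say whether counting used strand, so its reads are uncertain. The same holds for 865 bases that SLC7A11 shares with SLC7A11-AS1 (8.97% of its length) and 780 bases that SLC1A5 shares with an antisense gene (23.4%), whose own reads were 19 and 1 in the deficient library and 14 and 2 in the sgVector library. All 5 SLC7A members past the floor had log2 ratios above 0, with a median of 0.23, although SLC7A6 and SLC7A11 stood below 0 after the GC and length correction and SLC7A6 also without mitochondrial genes. The pseudogenes SLC7A5P1 and SLC7A5P2, whose sequences resemble SLC7A5, had 5 and 0 reads in the deficient library against 7 and 0 in the sgVector library.

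The SLC38A family, the most abundant of the families, summed to 231 RPKM in the deficient library and 201 RPKM in the sgVector library. SLC38A1, also called SNAT1, had 7416 reads in the deficient library against 5495 reads in the sgVector library, 1.34-fold higher (1.29 to 1.38), and its log2 ratio of 0.42 became 0.23 after the GC and length correction. SLC38A2, called SNAT2 and known as a target of the amino acid response, had 18190 reads in the deficient library against 16167 reads in the sgVector library, 1.11-fold higher (1.09 to 1.14), and its log2 ratio of 0.15 turned to -0.05 after the GC and length correction. The ratio of SLC1A5 to SLC38A1 RPKM was 1.04 in the deficient library against 2.04 in the sgVector library. That ratio is not corrected for GC content and length. The correction moved the log2 ratios of the genes toward each other, SLC1A5 from -0.55 to -0.34 and SLC38A1 from 0.42 to 0.23. SLC38A1 and SLC38A2 lie beside each other on chromosome 12, and each counts among the 5 neighbours of the other. The median of those neighbours was 0.06 for either gene. It became -0.18 after the GC and length correction and was -0.23 over the 14 neighbours within 2 Mb. Over 571 genes of the chromosome the median was -0.29.

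Members of the SLC38A family in lysosomes or of less studied function showed small differences. SLC38A9, the lysosomal arginine sensor that acts on mTORC1, stood at 2.47 RPKM in the deficient library and 2.41 RPKM in the sgVector library, a fold of 1.03 (0.883 to 1.19), and its log2 ratio of 0.04 turned to -0.20 after the GC and length correction, outside that interval. SLC38A7, a lysosomal glutamine carrier, stood at 2.34 RPKM in the deficient library against 2.73 RPKM in the sgVector library, a fold of 0.858 (0.726 to 1.01). SLC38A6 stood at 2.61 RPKM in the deficient library against 2.37 RPKM in the sgVector library, a fold of 1.10 (0.903 to 1.34), and its exons share 245 bases with TRMT5 on the opposite strand. These 3 intervals held no change. SLC38A10 was the exception, at 9.49 RPKM from 1199 reads in the deficient library against 8.36 RPKM from 1045 reads in the sgVector library, 1.14-fold higher (1.04 to 1.23). The SLC38A median was 0.14 over 6 members and became -0.02 after the GC and length correction.

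Both genes past the floor in the SLC36A family and both in the SLC43A family stood higher in the deficient library. SLC36A1, the proton-coupled carrier PAT1 of lysosomes and the plasma membrane, had 337 reads in the deficient library against 262 reads in the sgVector library, 1.27-fold higher (1.08 to 1.501). SLC36A4, a carrier of proline and tryptophan, had 886 reads in the deficient library against 609 reads in the sgVector library, 1.44-fold higher (1.30 to 1.598), and its log2 ratio of 0.51 became 0.27 after the GC and length correction. SLC43A1, the large neutral amino acid carrier LAT3, had 439 reads in the deficient library against 366 reads in the sgVector library, 1.19-fold higher (1.03 to 1.37). These 3 intervals lay above no change by margins of different width, narrowest for SLC43A1.

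SLC43A2, the large neutral amino acid carrier LAT4, had the highest fold among the members past the floor and their lowest level in the sgVector library. It stood at 1.98 RPKM from 344 reads in the deficient library against 0.972 RPKM from 167 reads in the sgVector library, 2.04-fold higher (1.69 to 2.47). Its log2 ratio with the pseudocount of 0.1 RPKM was 0.96, short of 2-fold, and 0.60 with a pseudocount of 1 RPKM, as a pseudocount shrinks the ratio of a low gene. The 26 neighbours within 1 Mb of its start had a median of 0.06, so that SLC43A2 stood 0.90 above its neighbourhood.

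**Figure D3:**
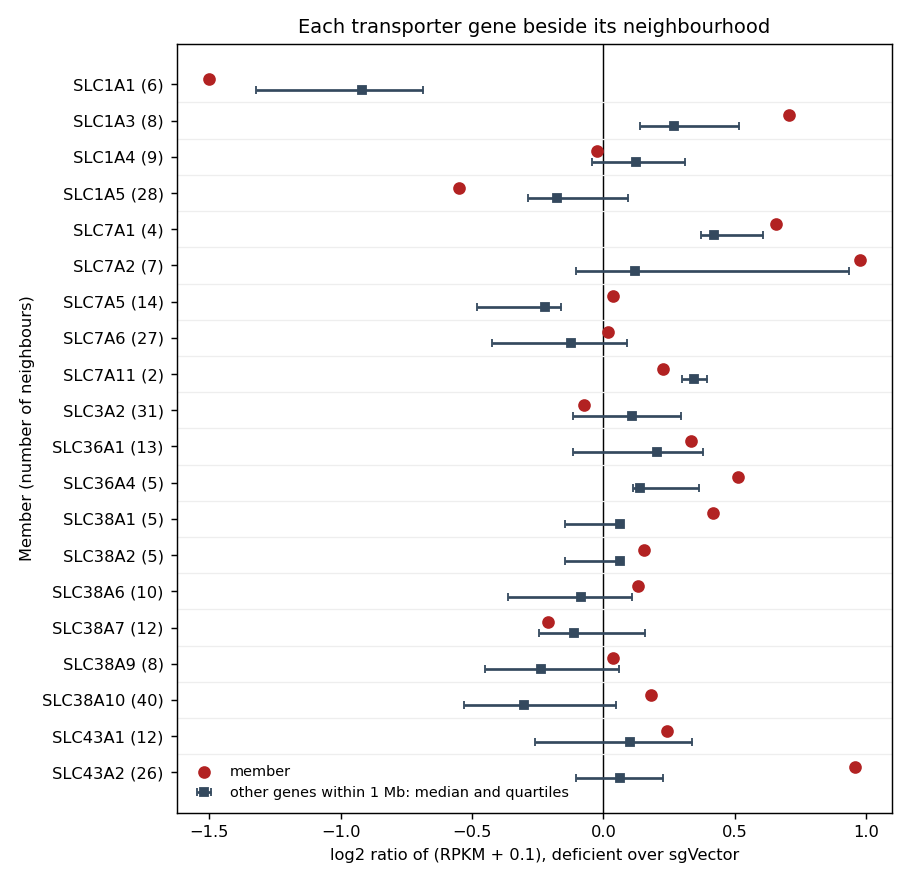
Log2 ratio of (RPKM + 0.1), deficient over sgVector, of each member past the floor (circle) and, under it, the median and quartiles of the other protein-coding genes past the floor that start within 1 Mb (square and bar), with their number in brackets. SLC1A1 and the median of its neighbours lie far below 0, at -1.50 and -0.92. SLC7A2 and SLC43A2 lie 0.86 and 0.90 above the medians of their neighbourhoods, with an upper quartile of 0.93 around SLC7A2.

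Set against their neighbourhoods, 14 members stood above the median of the genes around them (70%) and 6 below, against 50.1% above among 10483 protein-coding genes with a neighbour. On the same side of 0 as that median were 13 members (65%), against 66.8% of those protein-coding genes. SLC1A3 lies on chromosome 5 (36606457 to 36688436, hg19) among 8 neighbours that were each above 0, with a median of 0.27 that became 0.02 after the GC and length correction, while its own ratio of 0.71 became 0.61. SLC1A5 lies on chromosome 19 (47278140 to 47291851) among 28 neighbours with a median of -0.18, which became 0.05. SLC7A5 on chromosome 16 (87863629 to 87903094) stood at 0.04 among 14 neighbours of which 12 were below 0, with a median of -0.22, or -0.09 after the correction. SLC38A10 stood at 0.18 among 40 neighbours with a median of -0.30, which became -0.06 after the correction and was -0.06 over the 64 neighbours within 2 Mb. Members with few neighbours carry little weight here, such as SLC7A11 on chromosome 4 with 2. The part of position in these values was not tested.

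Glutamine synthetase was higher and asparagine synthetase lower in the deficient library. In a list of 16 glutamine, glutamate and glutathione enzymes, 12 passed the floor, 1 (GLUL) reached 2-fold higher and 1 (ASNS) reached 2-fold lower, with 3 above 0 and 9 below and a median log2 ratio of -0.24. Over protein-coding genes past the floor the shares were 2.10% higher and 2.07% lower, with 46.4% above 0 and a median of -0.03. After the GC and length correction 1 of the 12 reached 2-fold higher and 2 reached 2-fold lower. GLUL, which encodes glutamine synthetase, stood at 141 RPKM from 20900 reads in the deficient library against 29.02 RPKM from 4248 reads in the sgVector library, 4.87-fold higher (4.71 to 5.03). ASNS, which uses glutamine to make asparagine, stood at 12.6 RPKM in the deficient library against 25.7 RPKM in the sgVector library, 2.04-fold lower (1.89 to 2.21). GLUL kept a log2 ratio between 2.16 and 2.35 under the scaling, pseudocount and correction settings, and ASNS one between -1.05 and -0.95.

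Other members of that list stood closer to no change. GCLM, the modifier subunit of the enzyme that starts glutathione synthesis, stood at 0.37 and the glutathione reductase gene GSR at 0.09, while CTH, which makes cysteine by transsulfuration, stood at -0.43. The catalytic subunit gene GCLC stood at -0.09 from 347 reads in the deficient library against 365 reads in the sgVector library. GPX4, the peroxidase that uses glutathione against lipid peroxides, had 191 RPKM in the deficient library against 220 RPKM in the sgVector library and a log2 ratio of -0.20.

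**Figure D4:**
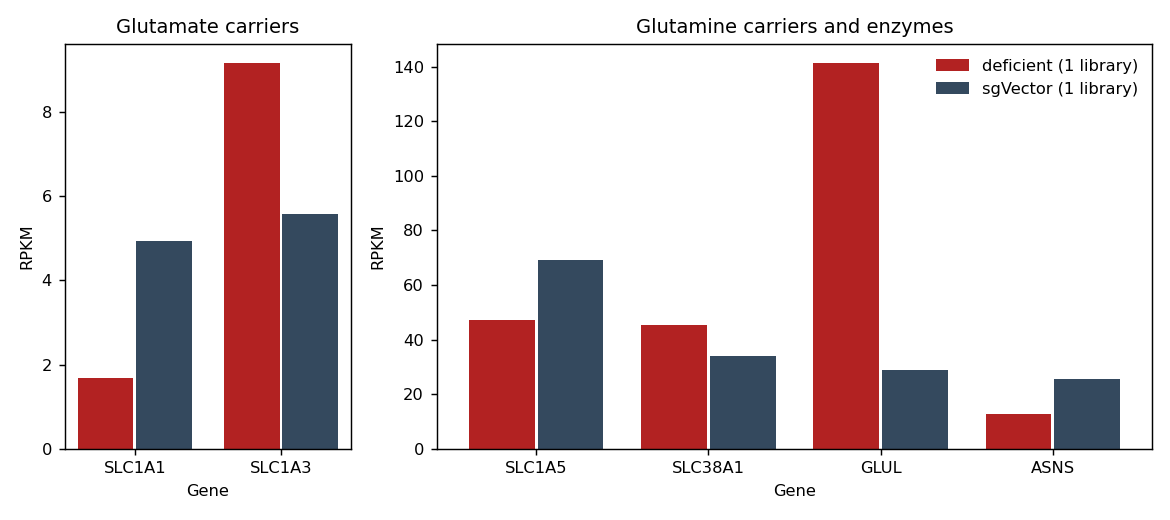
RPKM of 2 glutamate carrier genes (left) and of glutamine carrier and enzyme genes (right), with 1 library per bar (deficient left, sgVector right in each pair). SLC1A3 is higher and SLC1A1 lower in the deficient library, and GLUL, at 141 RPKM in the deficient library against 29.02 RPKM in the sgVector library, differs most among the genes drawn.

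Regulators of the amino acid response lay on both sides of no change. Of 14 such genes past the floor 0 reached 2-fold higher and 1 reached 2-fold lower, against 2.10% and 2.07% of protein-coding genes. Above 0 were 5 and below were 9, with a median of -0.13, against 46.4% above 0 and a median of -0.03. DDIT3, which encodes the stress factor CHOP, had 133 reads in the deficient library against 392 reads in the sgVector library, 2.98-fold lower (2.44 to 3.65). TRIB3, a feedback pseudokinase, stood at -0.66 and ATF4, the central factor of the response, at -0.42, or -0.23 after the GC and length correction. CEBPB and ATF5, further factors of the bZIP class, stood at 0.73 and 0.72, and the sensor kinase gene EIF2AK4 at 0.27. The correction put CEBPB at 1.01, so that 1 of the 14 genes then reached 2-fold higher.

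Genes of amino acid sensing to mTORC1 showed 0 of 29 past 2-fold in either direction. The list was not split into genes that activate and genes that restrain mTORC1. Shares over protein-coding genes past the floor were 2.10% higher and 2.07% lower. Of the 29 genes 11 stood above 0 and 18 below, with a median of -0.12, against 46.4% above 0 and a median of -0.03. The lowest were SEC13 at -0.97, a GATOR2 and coat protein gene, the small GTPase gene RRAGA at -0.84 and the GATOR1 gene NPRL2 at -0.67. The highest were FNIP2 at 0.69, RRAGD at 0.49 and the sestrin gene SESN1 at 0.47. RRAGA and RRAGD encode RagA and RagD, subunits of the Rag heterodimers, and stood on opposite sides, RRAGA with 303 reads in the deficient library against 539 reads in the sgVector library and RRAGD with 1198 reads in the deficient library against 844 reads in the sgVector library.

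Amino acid carriers outside the families that passed the floor stayed within 2-fold, as did most protein-coding genes. Past the same floor 2.10% of protein-coding genes reached 2-fold higher and 2.07% reached 2-fold lower, and 46.4% stood above 0. Of 22 other amino acid and peptide transporters 6 passed the floor, with 0 past 2-fold and each of the 6 below 0, at a median of -0.18, although 2 stood above 0 after the GC and length correction, with a median of -0.03. The glycine carrier gene SLC6A9 stood at 5.02 RPKM from 424 reads in the deficient library against 8.83 RPKM from 738 reads in the sgVector library, 1.76-fold lower (1.56 to 1.99). The histidine and peptide carrier SLC15A4 stood at -0.29, the cystine exporter CTNS at -0.20, MFSD12 at -0.16, the lysosomal cationic carrier SLC66A1 at -0.11 and the taurine carrier SLC6A6 at -0.05. Among mitochondrial carriers 9 of 11 passed the floor, 0 were past 2-fold, 4 were above 0 and 5 below, with a median of -0.01. SLC25A29, a carrier of basic amino acids, SFXN3 and SLC25A38, a glycine carrier, stood at -0.62, -0.44 and -0.23, and the serine carrier SFXN1, the ornithine carrier SLC25A15 and the aspartate and glutamate carrier SLC25A13 at 0.33, 0.17 and 0.13.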

How the data were processed

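PolyA RNA was sequenced in 1 deficient and 1 sgVector library. The submitters' processing notes name Subread, featureCounts 1.6.4, GRCh37 and hg19; an annotation release and a strand setting are not stated there. The authors deposited RPKM values with exon coordinates and lengths, per the file headers. Whole reads were recovered from RPKM times length for 100% of values (within 1e-06 of a read). Gene types came from GENCODE release 29 by identifier (93.4% of rows matched) and symbols from a gene name table; 41 rows of pseudoautosomal copies on Y were left out.

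Differences are log2 ratios of (RPKM + 0.1), deficient over sgVector, past a floor of 1 RPKM on the mean of both libraries; the pseudocount understates the change of low genes. A call was a ratio of at least 2-fold. Fold changes are ratios of read shares without the pseudocount; reads amplified by PCR and lacking molecular identifiers are not independent. Alternatives were pseudocounts of 1 and 0.01, centring, TPM, upper-quartile scaling, TMM (a trimmed mean of log ratios, with 30% of ratios and 5% of levels trimmed), removal of mitochondrial genes, a lowess correction (share 0.3) on GC content and length, other floors and other thresholds. Every member past the floor was named, and of each list the 3 highest, the 3 lowest and those past 2-fold; the other list genes were chosen after their values were seen. Some list genes that this rule covers are not reported here. Members, lists and transport classes were chosen with earlier results of these data known. Steps were tested on simulated data. Versions were matplotlib 3.10.9, statsmodels 0.14.6, scipy 1.17.1, pandas 2.3.3, numpy 2.4.6 and Python 3.11.15.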

Additional observations from a re-analysis of the deposited data

How the results depend on the processing

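No paired analysis was possible because each group had 1 library. The count of members at least 2-fold higher, 0 as reported, was 1 with a pseudocount of 0.01 RPKM, with centring, with upper-quartile scaling, with the GC and length correction and with no pseudocount (an alternative added after seeing the data), 2 with TPM and with TMM, 4 at 1.5-fold and 11 with the whole interval past no change. The genes just under 2-fold by the log2 ratio of (RPKM + 0.1) were SLC7A2 and SLC43A2, the latter at 2.04-fold by read shares. The count at least 2-fold lower, 1 as reported, was 0 with a floor of 5 RPKM, which leaves out SLC1A1, and 2 with the whole interval past no change. With no floor the median over members was 0.00, as unexpressed genes enter at 0, and the SLC1A, SLC7A and SLC36A medians were -0.025, 0.00 and 0.17. With a floor of 5 RPKM the SLC1A median was 0.078, the SLC7A median 0.44 and the SLC43A median 0.24, the last also with a floor of 0.5 RPKM and with none (0.24 each), since 1 to 3 genes are left or added; no SLC36A member passed that floor. The SLC38A median became -0.024 after the GC and length correction, and the cause was not tested.

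Of 160 values of members under the 8 scaling, pseudocount and correction settings, 142 stayed inside the counting interval, and 10 of the 18 outside came from the GC and length correction. The sign held in 14 members, 11 above 0 and 3 below, and changed in 6: SLC1A4, SLC7A6, SLC7A11, SLC3A2, SLC38A2 and SLC38A9. The median of protein-coding genes shifted by 0.07 at most, with TMM. Of 40 neighbourhood medians under a window of 2 Mb or the correction, 30 stayed within the quartiles. Depth limits the 9 members below the floor that had reads.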
